A study of Mus musculus with 8 samples.

Results

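5-methylcytosine (5mC) in 1 kb windows of the mouse genome was compared between neural precursor cells (NPCs) with an shRNA against Tet3 (shTet3) and NPCs with a Non-targeting control shRNA (shScr). The 4 oxidative bisulphite (oxBS) libraries of the series, 2 per shRNA, were used out of 8 libraries in all. Each CpG had to be covered by 10 or more calls in all of these 4 libraries (662455 of 757812), and their methylated calls were summed in fixed windows of 1000 bases. Of 100571 windows that held such a CpG, the 58941 with at least 3 of them were compared, and these windows held 601564 CpGs. The NPCs came from A2lox.cre mouse ES cells with a doxycycline-inducible shRNA. Both groups, the controls included, received doxycycline at 2 µg/ml for 5 days. The labels give the target of the shRNA and no more, no library is of the line without an shRNA, and nothing in them says whether the replicates of a group came from separate clones. The p-values of limma, of the F test and of the permutation test below therefore measure the spread between these libraries only, and the q values of the logistic regression measure counting error. The files hold no RNA, so that the level of Tet3 itself and the identity of the cells could not be checked here.

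5mC is set at CpGs by the DNA methyltransferases, of which Dnmt1 copies the mark to the new strand at replication, and the TET enzymes oxidise it to 5-hydroxymethylcytosine (5hmC) and beyond. In differentiated cells most CpGs outside of CpG islands are methylated, whereas islands at promoters are mostly free of the mark. In a BS library both 5mC and 5hmC are read as C. In an oxBS library 5hmC has first been oxidised and is read as T, so that the percent of calls read as C is the 5mC level. RRBS cuts the DNA with MspI, whose site holds a CpG, and therefore sees mainly the CpG-rich part of the genome in short stretches beside these sites.

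Total calls per oxBS library ranged from 45128430 to 51895064, and the median CpG was covered by 51 to 61 calls. A window held a median of 282 to 324 calls in a library, which gives a median half-width of the 95% Wilson interval between 4.08 and 4.81 percentage points. The intervals and the logistic regression cover counting error only, since PCR copies and the CpGs of a read are not independent molecules. The shScr libraries did not lie at the same level. In windows with a mean level above 40%, shScr 2 was above shScr 1 in 88.3% of windows, with mean levels of 79.2% and 67.6%, and the BS libraries from the same DNA lay at 79.8% and 68.2%. The shTet3 libraries had mean levels of 56.2% and 56.5% in the same windows. Of the 31548 windows above 40% that were covered in all 8 libraries, between 5.78% and 14.2% per library had an oxBS level over 10 points above the BS level of the same DNA, and between 7.70% and 15.7% had a BS level over 10 points above the oxBS level.

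The reference sequence (mm9, plus strand) of 8 named windows is given here to show how few bases carry each value. The stretches run 12 bases beyond the outer CpGs, and capitals mark the tested CpGs. All 757812 listed CpGs were at the C of a CG in this build. The first 5 are of windows called lower in shTet3. They are the intergenic windows on chromosomes 1 and X with the widest gap between the shRNAs, an intron of Esrrb, a coding exon of Sema6b and an intron of Tet1.
Chromosome 1, chr1:191756196-191756236: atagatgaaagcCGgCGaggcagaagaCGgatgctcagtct
Chromosome X, chrX:60242348-60242528: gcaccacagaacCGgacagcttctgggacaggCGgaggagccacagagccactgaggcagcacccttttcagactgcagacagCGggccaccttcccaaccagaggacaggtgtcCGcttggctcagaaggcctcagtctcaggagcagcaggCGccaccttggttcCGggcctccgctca
Esrrb intron, chr12:87859070-87859200: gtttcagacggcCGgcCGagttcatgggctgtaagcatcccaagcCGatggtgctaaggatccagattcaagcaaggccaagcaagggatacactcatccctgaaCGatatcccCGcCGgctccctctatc
Sema6b coding exon, chr17:56269428-56269506: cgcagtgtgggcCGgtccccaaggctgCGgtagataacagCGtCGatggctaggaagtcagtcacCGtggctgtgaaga
Tet1 intron, chr10:62332994-62333152: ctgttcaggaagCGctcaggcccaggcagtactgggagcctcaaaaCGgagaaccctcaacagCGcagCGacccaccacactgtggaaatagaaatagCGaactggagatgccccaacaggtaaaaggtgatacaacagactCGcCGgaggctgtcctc
The other 3 are of the windows called higher in shTet3 with the widest gap among those with at least 100 calls in each library. They lie at Zrsr1, an imprinted gene inside of Commd1, and in intergenic DNA on chromosomes 15 and 4. Of the 10 tested CpGs of the Zrsr1 window, 7 are in the stretch.
Zrsr1 and Commd1, chr11:22873075-22873181: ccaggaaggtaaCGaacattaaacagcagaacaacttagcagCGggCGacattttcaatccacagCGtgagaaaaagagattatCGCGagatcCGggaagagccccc
Chromosome 15, chr15:75714595-75714692: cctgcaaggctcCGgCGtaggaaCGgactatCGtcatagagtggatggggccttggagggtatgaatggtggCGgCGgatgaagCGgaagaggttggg
Chromosome 4, chr4:55664378-55664563: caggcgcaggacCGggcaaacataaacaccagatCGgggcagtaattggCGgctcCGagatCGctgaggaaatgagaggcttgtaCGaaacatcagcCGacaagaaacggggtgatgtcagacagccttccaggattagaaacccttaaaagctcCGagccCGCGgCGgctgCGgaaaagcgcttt

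The 5mC level was lower in shTet3 in most of the methylated windows tested and close to that of shScr where there was little 5mC. In the shScr libraries the mean window level was 43.8% and 51.7%. The shTet3 libraries had 36.4% and 36.5%, a difference of -11.3 points (SE 3.98, n = 2 per group). The groups did not overlap, but the exact permutation test (two-sided, 2 libraries against 2) gave p = 0.333, which is the smallest p this design allows. In the 35228 windows above 40% the difference was -17.1 points, and in the other 23713 windows it was -2.77 points, with levels of 8.38% and 11% against 7.04% and 6.81%. Pooling the calls of all windows gave 22.7% and 19.9% for shScr against 16.2% and 18% for shTet3. In this measure windows count by their calls, and a single window held up to 925625 calls in a library. Window means are therefore used below.

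**Figure D1:**
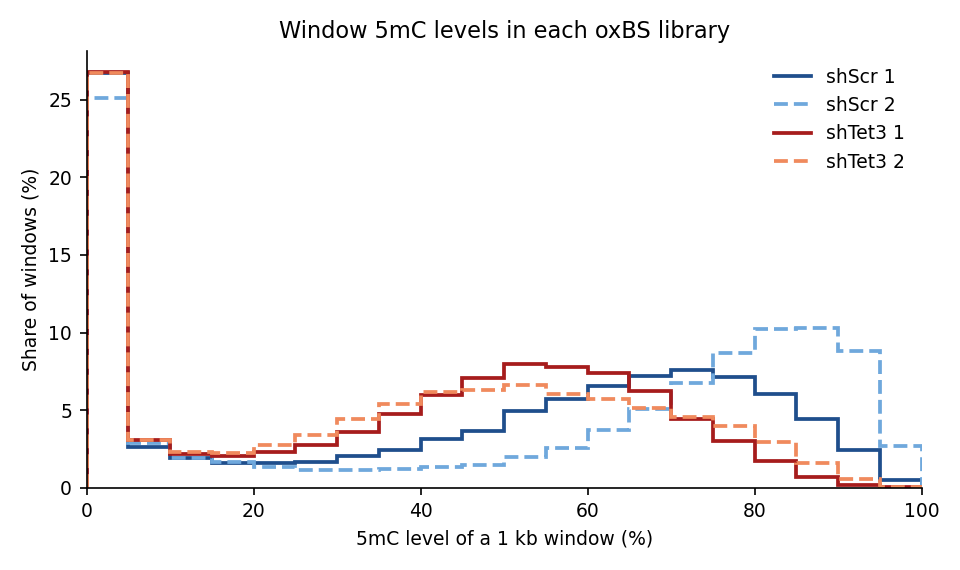
Share of the 58941 windows (y, percent) by 5mC level (x, percent, in bins of 5 points) in each oxBS library, as 1 line per library. From 26.7% to 26.8% of windows lie below 5% in shScr 1 and both shTet3 libraries and 25.1% in shScr 2, and the upper part of the distribution is lowest in both shTet3 libraries and highest in shScr 2.

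The likelihood ratio test of a logistic regression (q below 0.01, over 10 points of pooled difference) called 29844 windows lower in shTet3, 50.6% of those tested, and 58 windows higher, 0.0984%. Both shTet3 libraries lay below both shScr libraries in 86.3% of the windows called lower, against 55.2% of all windows. Among the 58 called higher, both shTet3 libraries lay above both shScr libraries in 20 (34.5%), against 2.65% of all windows. These calls do not take the spread between libraries into account. With limma on the logit of the levels, 0 windows passed in either direction (smallest adjusted p 0.357), and 6753 windows were lower and 4 higher at an unadjusted p under 0.05. With precision weights, limma also called 0 (smallest adjusted p 0.244, with 11069 lower and 3 higher at an unadjusted p under 0.05), and the overdispersion-corrected F test called 0 (smallest adjusted p 0.520, with 4382 and 3). On simulated windows with 2 libraries per group, weighted limma recovered 5 of 100 losses of 15 points and 58 of 100 losses of 30 points. Unweighted limma and the F test recovered 0 of 100 at either size. In the simulation nearly all of the 58941 windows were unchanged and the libraries differed by counting error only. These shares therefore do not carry over to the real comparison, and they cannot decide what the 0 calls say about losses of these sizes. When the libraries were centred by an offset, the median logit of each over windows with a mean level between 20 and 80%, the calls became 2193 lower and 4383 higher, so that 66.7% of the called windows were higher relative to the shift, against 0.194% without centring. All 2193 were also among the windows called lower without centring, and their median uncentred difference was -30.4 points.

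The control library with the higher level weighed on these counts. Without shScr 2, 18398 windows were called lower and 701 higher, and without shScr 1, 34341 and 172. The mean difference over all windows was -7.33 points without shScr 2 and -15.3 points without shScr 1. The shScr libraries were over 10 points apart in 41.8% of windows and the shTet3 libraries in 24.2%. The gap between the groups was wider than the gap between the shScr libraries in 41.5% of the windows called lower.

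The BS libraries of the same DNA, in which 5mC and 5hmC are read together, gave a second set of reads for the called windows, though no further replicates. Of the windows called lower, 27252 had 3 or more CpGs covered in all 8 libraries. Both shTet3 BS libraries lay below both shScr BS libraries in 78.3% of them, against 55.6% of all windows so covered, and their median BS difference was -17.7 points. Of the windows called higher, 47 were covered in this way. Only 2 of the 47 (4.26%) had both shTet3 BS libraries above both shScr BS libraries, against 2.75% of all windows, and their median BS difference was -2.19 points. The BS difference was above 0 in 19 of the 47.

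**Figure D2:**
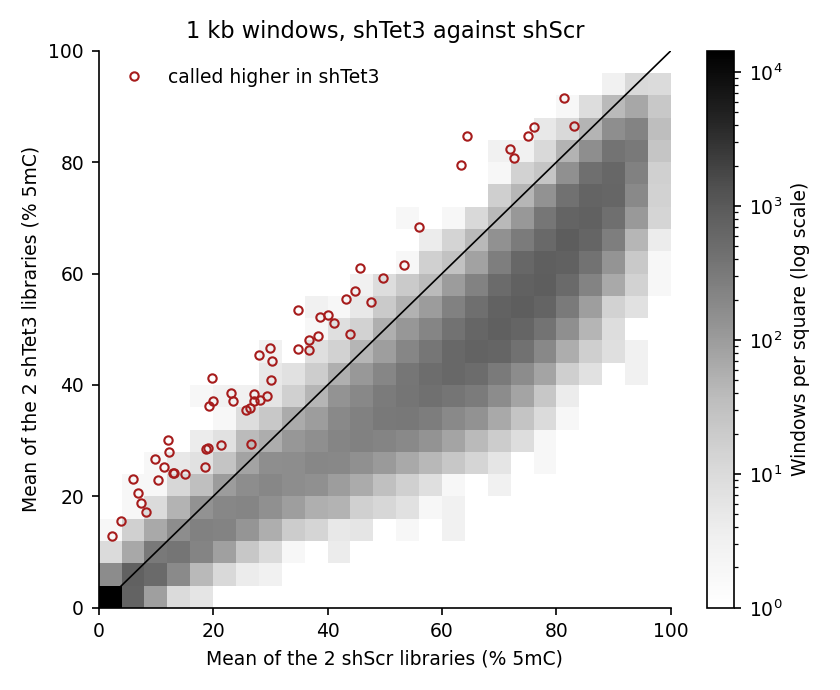
Mean 5mC level of the 2 shTet3 libraries (y, percent) against that of the 2 shScr libraries (x, percent) for all 58941 windows, as the number of windows per square of 4 by 4 points on a log grey scale. The black line marks equal levels, the red circles are the 58 windows called higher, and most windows above 20% lie under the line.

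Grouped by the mean level over the 4 libraries, the loss in points was largest at middle levels and small at both ends. This mean includes the shTet3 libraries, which limits the loss that a group near either end can hold. Grouped by shScr alone, the loss at the upper end was larger. This grouping has a limit of its own, since it picks windows where shScr was read high, which can widen the loss. Among windows with a shScr mean of 92 to 96%, the fullest class of shTet3 means was 80 to 84% (325 windows). Windows with a mean level of 50 to 60% went from 57.6% and 72.0% in shScr to 47.2% and 44.3% in shTet3, a difference of -19.1 points, and 82.2% of the 8020 windows were called lower. At 60 to 70% the difference was -18.8 points and the called share 84.0%. It was -11.9 points at 80 to 90%, -6.21 points above 90%, -4.47 points at 10 to 20% and -0.370 points below 10%, where 11 of 16997 windows were called lower. The 58 windows called higher had a median mean level of 33.2%.

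Of the highly methylated windows, the largest class stayed highly methylated, and none lay in the unmethylated range in both shTet3 libraries. Both shScr libraries were above 60% in 23843 windows. Both shTet3 libraries stayed above 60% in 42.8% of these and were between 20 and 60% in 29.9%, and 0 windows had both shTet3 libraries below 20%. In the remaining 27.3% the shTet3 libraries lay in different ranges. Of the 5114 windows with both shScr libraries between 20 and 60%, 354 (6.92%) had both shTet3 libraries below 20% and 1 had both above 60%. Of the 17903 windows below 20% in both shScr libraries, 17840 (99.6%) were below 20% in both shTet3 libraries, and 7 were between 20 and 60% in both.

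Windows at promoters (from 1 kb before to 0.5 kb after the start of a protein-coding transcript) were mostly unmethylated and seldom called. Of 18864 promoter windows, 12% were called lower, against 67.2% of 22650 windows in gene bodies and 70.8% of 17427 intergenic windows. Among windows above 40%, 72.4% of promoter windows, 75.8% of gene body windows and 81.9% of intergenic windows were called lower, against 78.0% of all such windows. The mean difference among them was -15.5, -16.3 and -18.5 points. The order of the libraries was the same in all 3 places, with shScr 2 highest, shScr 1 next and both shTet3 libraries below them.

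The loss in methylated windows grew with the distance from a transcription start site (TSS) and shrank with the number of CpGs. From the nearest kilobase to beyond 100 kb, the mean difference in windows above 40% went from -15.3 to -19.1 points and the share called lower from 72.1% to 84.0%. Windows with 3 to 4 tested CpGs differed by -17.6 points, those with 10 to 19 by -15.1 points and the 25 methylated windows with 40 or more by -6.43 points, with 4 of them called. For this last group the shScr levels of 53.7% and 65.7% overlapped with the shTet3 levels of 51% and 55.6%. The share called also depends on the calls per window. In windows above 40%, it was 67.2% in the 8790 windows with the fewest calls and 81.2% in the 8807 with the most, whereas the mean difference was -17.5 and -16.2 points. Among the autosomes, the mean difference in windows above 40% was smallest on chromosome 11 at -14.9 points and largest on chromosome 13 at -18.3 points, and on chromosome X it was -18.7 points.

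**Figure D3:**
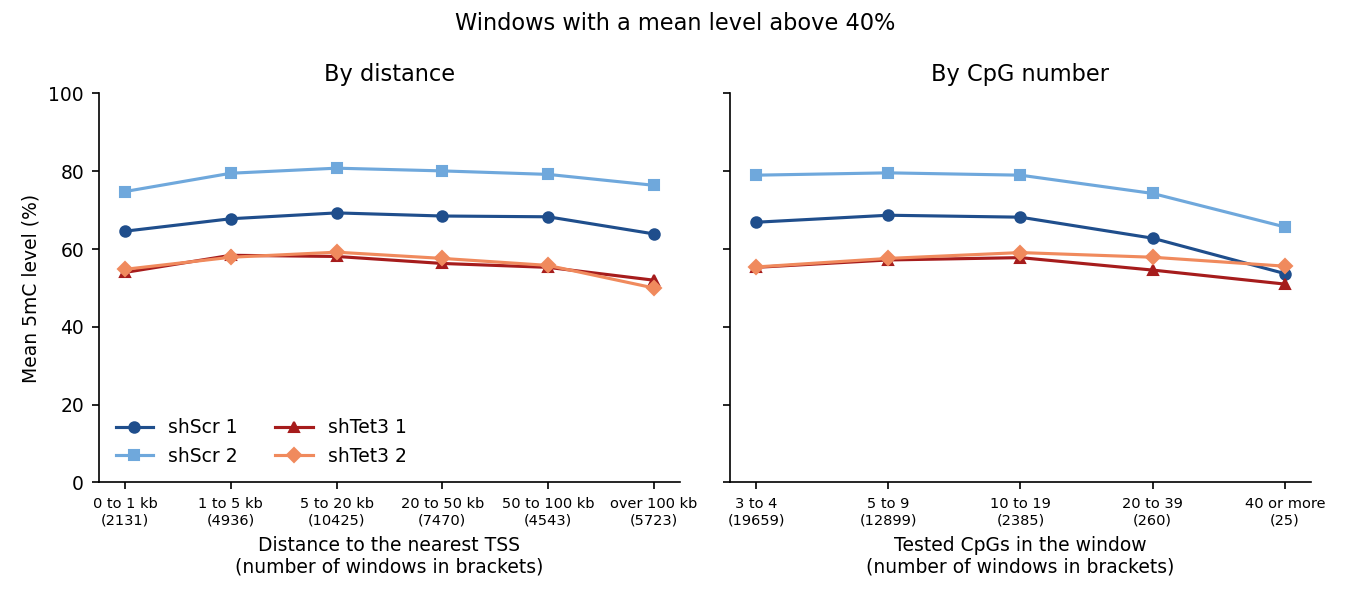
Mean 5mC level (y, percent) of the windows above 40% in each oxBS library, by distance to the nearest TSS (left) and by the number of tested CpGs (right), with the number of windows in brackets. In each distance class the shTet3 libraries lie below both shScr libraries, and with 40 or more CpGs shTet3 2 lies above shScr 1.

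Within windows called lower most CpGs were lower, which follows in part from the call, since it was made on the summed calls of these CpGs. The windows called lower held 158823 CpGs, of which 96.2% had a lower mean level in shTet3, and every tested CpG was lower in 85.1% of these windows. In the window on chromosome 1 printed above, the first CpG was at 93.6% and 87.2% in shScr and at 34.9% and 43.3% in shTet3. The other two CpGs of this window differed by -44.2 and -48.0 points. In the Esrrb stretch the difference ran from -56.8 points at the second CpG to -18.7 points at the third, 29 bases on. In windows above 40% that were not called, 80.3% of CpGs were lower in shTet3. The median SD of the CpG differences within a window was 7.66 points there and 7.92 points in windows called lower.

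Most windows called lower lay outside of runs of called windows. Of 11665 pairs of neighbouring tested windows, 1962 were both called lower (16.8%) and 6 were called in opposite directions. Of the windows with a tested neighbour, 27.2% were called lower, against 50.6% of all windows. Neighbouring windows both above 40% were both called lower in 57.6% of 2986 pairs, where 78.0% of all windows above 40% were called lower. Whether called windows lie together more often than these shares imply was not tested. The called windows formed 1768 runs, 1597 of them of 2 windows, 151 of 3, 18 of 4 and 2 of 5 or more, and these held 12.5% of the windows called lower. Only 35.5% of windows had a tested neighbour, which limits the length of a run. With up to 5 kb between windows there were 4080 runs and the longest had 8 windows. The correlation of the differences of 2 windows above 40%, given here as a description, was 0.238 at a distance of 1 kb (2986 pairs, which share libraries and often reads from the same digest) and decreased to 0.0360 in the class of the farthest pairs (413985 pairs). Windows in runs and called windows outside of runs had similar median differences of -17.4 and -18.5 points, and windows in runs were more often in gene bodies (61.5% against 49.5%).

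The longest run with at least 100 calls in each window and library lay in Spen, which codes for an RNA-binding transcriptional repressor known for its part in X inactivation. Its 6 windows (chr4:141030000-141035999) held 60 tested CpGs, at a pooled level of 84.8% and 91.7% for shScr against 71.7% and 77.8% for shTet3. Both shTet3 libraries lay below both shScr libraries in all 6 windows, and the difference ran from -19.1 to -10 points. Without shScr 2 or without shTet3 1 the pooled difference was -10.4 points, and single windows of the run were then no longer called. The same held for each of the other runs called lower named here without shScr 2. With the library offset, too, each of the 4 runs had windows that were not called. A run of 4 windows in Col11a2, a fibrillar collagen gene (chr17:34198000-34201999), had 64.1% and 83.2% against 55.7% and 49.5%. In the third window of Col11a2 shTet3 1 was at 60.7% and shScr 1 at 58.9%, so that the groups overlapped there. Without shScr 2 the difference over this run was -10.8 points in place of -19.3 points.

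The intergenic runs on chromosome 8 (chr8:110769000-110772999, nearest TSS of Zfhx3) and chromosome 12 (chr12:20237000-20240999) had pooled levels of 58.6% and 78.2% against 42.2% and 44.5%, and of 70.3% and 79.6% against 54.8% and 56.7%. In the last window on chromosome 8, shScr 1 was at 31.4%, below both shTet3 libraries, and in the window of chromosome 12 with 55.5% in shScr 1, shTet3 2 was at 56.0%. The only run of windows called higher, named here although it had fewer than 100 calls in some libraries, was of 2 windows shared by Angpt2 and Mcph1 (chr8:18738000-18739999). Its levels were 6.88% and 33.1% against 44.8% and 29.6% in the first window and 2.17% and 10% against 20.5% and 25.9% in the second, and the groups overlapped in the first.

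**Figure D4:**
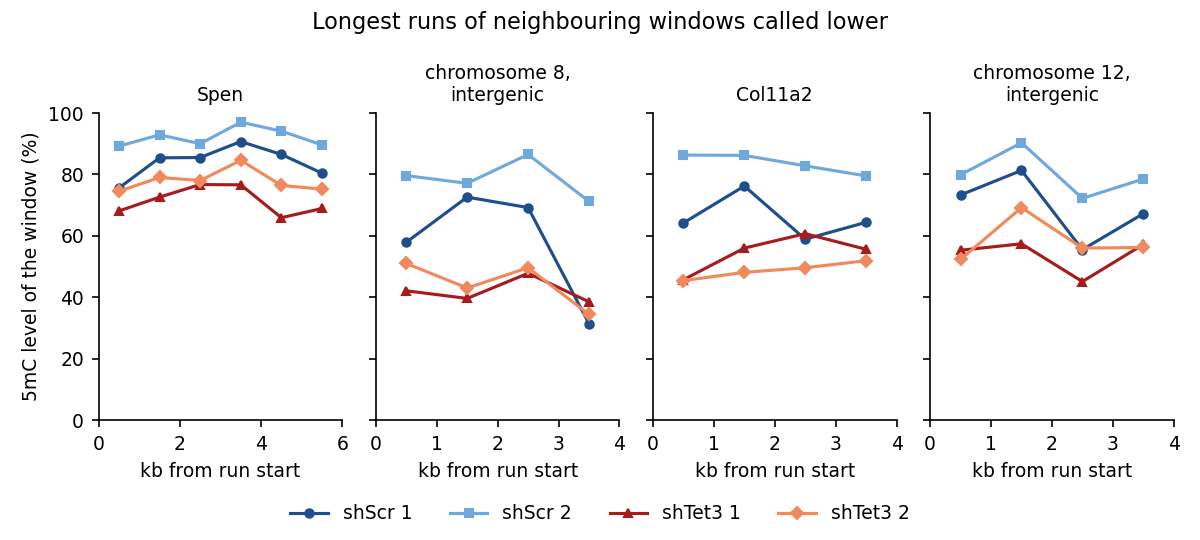
5mC level (y, percent) of each window in the 4 named runs called lower against the distance from the start of the run (x, kb), with 1 line per oxBS library. shScr 2 is highest in all of these windows, and shScr 1 meets the shTet3 libraries in single windows of the runs in Col11a2 and on chromosomes 8 and 12.

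Of 15260 protein-coding genes with a tested window, 8156 (53.4%) had a window called lower, 2009 (13.2%) had 3 or more, and 45 had a window called higher. Where both the promoter and the body were tested (6918 genes), 63.6% had a called window only in the body, 2.75% only in the promoter, 14.7% in both and 19% in neither. Among the 2368 genes with 5 or more tested windows the median share called lower was 50%, 53 had all their windows called lower and 102 had none. Without shScr 2, 1105 genes had 3 or more windows called lower.

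The genes with the most windows called lower were long or widely annotated genes. Gm20388, an annotated model of over 4 Mb on chromosome 8 that spans other genes (chr8:122434741-126869622), had 298 of 515 windows called lower. Fgfr2, which codes for a receptor of fibroblast growth factors, had 50 of 108 in an annotated span of chr7:137305965-140315033. This span, too, holds other genes. Of its 108 windows, 40 were promoter windows, and 6 were promoter windows of Fgfr2 itself. Camta1, which codes for a calmodulin-binding transcription activator, had 39 of 51, and 21 without shScr 2. Wwox, a tumour suppressor gene over a fragile site, had 35 of 43. Prdm16, a zinc finger gene with roles in brown fat and neural stem cells, had 32 of 39, and 21 without shScr 2. The pooled levels over the windows of Wwox were 66.5% and 70.0% for shScr against 55.0% and 54.1% for shTet3, and those of Prdm16 were 51.4% and 59.0% against 39.6% and 38.1%. In both genes the groups did not overlap, and in Wwox 33 windows had both shTet3 libraries below both shScr libraries.

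Of the 53 genes with all of their 5 or more windows called lower, Ano2, 0610012H03Rik, Pmfbp1, Me3 and Tyk2 had the widest mean gap between the groups outside of chromosome 18, each with 5 of 5 windows called lower and with both shTet3 libraries below both shScr libraries in all 5. Ano2, which codes for a calcium-activated chloride channel, was at 69.0% and 80.6% in shScr and at 45.9% and 50.9% in shTet3. Me3, which codes for a mitochondrial malic enzyme, was at 69.4% and 80% against 55.8% and 47.1%. Tyk2, a Janus kinase gene, was at 80.7% and 86.6% against 65.0% and 66.2%, and 3 of its windows were called without shScr 2 or without shTet3 1. The only genes with 2 windows called higher were Angpt2, Mcph1 and Gm20388, and each of these also had windows called lower (1, 4 and 298).

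Among windows with at least 100 calls in each library, those with the widest gap between the shRNAs were mostly intergenic and held few CpGs. The window on chromosome 1 (chr1:191756000-191756999, 9973 bases from the TSS of Smyd2) was at 93.8% and 82.1% in shScr and at 37.7% and 42.6% in shTet3, with 138 to 202 calls and a difference of -47.5 points (q = 5.1e-35). The 95% Wilson intervals were 88.6 to 96.7% and 75 to 87.6% in shScr and 30 to 46.0% and 36.0 to 49.5% in shTet3. The shTet3 libraries were thus at less than 50% of calls where both controls were above 80%. In the BS libraries the levels of this window were 65.7% and 88.8% against 50% and 59.2%. In all 7 windows named here as called lower with the widest gap, the BS level of shScr 1 was below its oxBS level.

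The window on chromosome X (chrX:60242000-60242999) was at 75.3% and 79.1% in shScr and at 36.6% and 29.2% in shTet3. At Evx1, a homeobox gene beside the Hoxa cluster (chr6:52267000-52267999), the levels were 76.4% and 75.9% against 40.6% and 38.3%, at 3 CpGs in exon sequence that is not coding. In both windows the shScr libraries were within 4 points of each other and the groups were at least 35.3 points apart. The other 4 windows, on chromosome 12 near Rad51ap2, on chromosome 8 near 4922502B01Rik and in Gm20388, and on chromosome 1 near Cpa6, had gaps between 35 and 38.6 points. In the BS libraries the groups did not overlap in 19 of the 22 named windows called lower, and they overlapped in the windows near Rad51ap2, near Cpa6 and in Runx1.

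The windows called higher with the widest gap had smaller differences and mostly low levels. The window at Zrsr1, a retrogene expressed from the paternal copy inside of Commd1 (chr11:22873000-22873999), was at 12.7% and 13.6% in shScr and at 24.6% and 23.9% in shTet3 (difference 11 points, q = 8.7e-15). All 10 CpGs had a higher mean in shTet3, but the shScr libraries differed between stretches. At the first of the 7 printed CpGs the levels were 17.3% and 5.06% against 19.7% and 15.1%. At the last CpG of the window, outside of the stretch, they were 8.55% and 26.2% against 32.6% and 35.7%. The shScr libraries thus lay in opposite orders in the 2 stretches. In the BS libraries the window was at 15.4% and 19.3% against 21.1% and 25.5%. Of the 3 tested windows of Zrsr1, only 1 was called. Its 2 promoter windows together were pooled at 22.2% and 8.58% in shScr against 25.2% and 19.6% in shTet3, so that the groups overlapped there.

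The windows on chromosome 15 (chr15:75714000-75714999, nearest TSS of Naprt1) and chromosome 4 (chr4:55664000-55664999, 119123 bases from the TSS of Klf4) were nearly unmethylated in shScr. On chromosome 15 the levels were 3.50% and 4.19% against 17.6% and 13.4%, and all 7 CpGs were higher in shTet3. On chromosome 4 they were 2.92% and 1.69% against 14.2% and 11.6%, with all 12 CpGs higher. In the BS libraries both windows overlapped, with 6.64% and 23.2% against 5.33% and 9.71% on chromosome 15 and 9.22% and 14.0% against 10.5% and 4.84% on chromosome 4. Without shTet3 1 the differences were 9.67 and 9.14 points, under the threshold.

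The remaining windows called higher with the widest gap rested more on 1 library. At Gata4, a transcription factor gene of heart and endoderm, shScr was at 77.2% and 51.6% and shTet3 at 83.9% and 85.5%, and without shScr 2 the difference was 7.6 points in place of 22.0. At the promoter window shared by Peg10 and Sgce, imprinted genes expressed from the paternal copy, they were 28.9% and 9.55% against 42.4% and 29.9%, and without shScr 2 the difference was 6.63 points. At Klhl9, Hs3st3b1 and Tbcel the differences without shScr 1 were 7.04, 6.79 and 3.20 points, and the Tbcel difference without shTet3 2 was 9.59 points. Thus 7 of these 8 windows lost their call when some library was left out, and Zrsr1 did not. In the BS libraries the groups did not overlap at Zrsr1 and Klhl9 and overlapped in the other 6. Of all 58 windows called higher, 43 had shScr 2 above shScr 1, and 6 lay on chromosome 18 and are counted but not named.

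**Figure D5:**
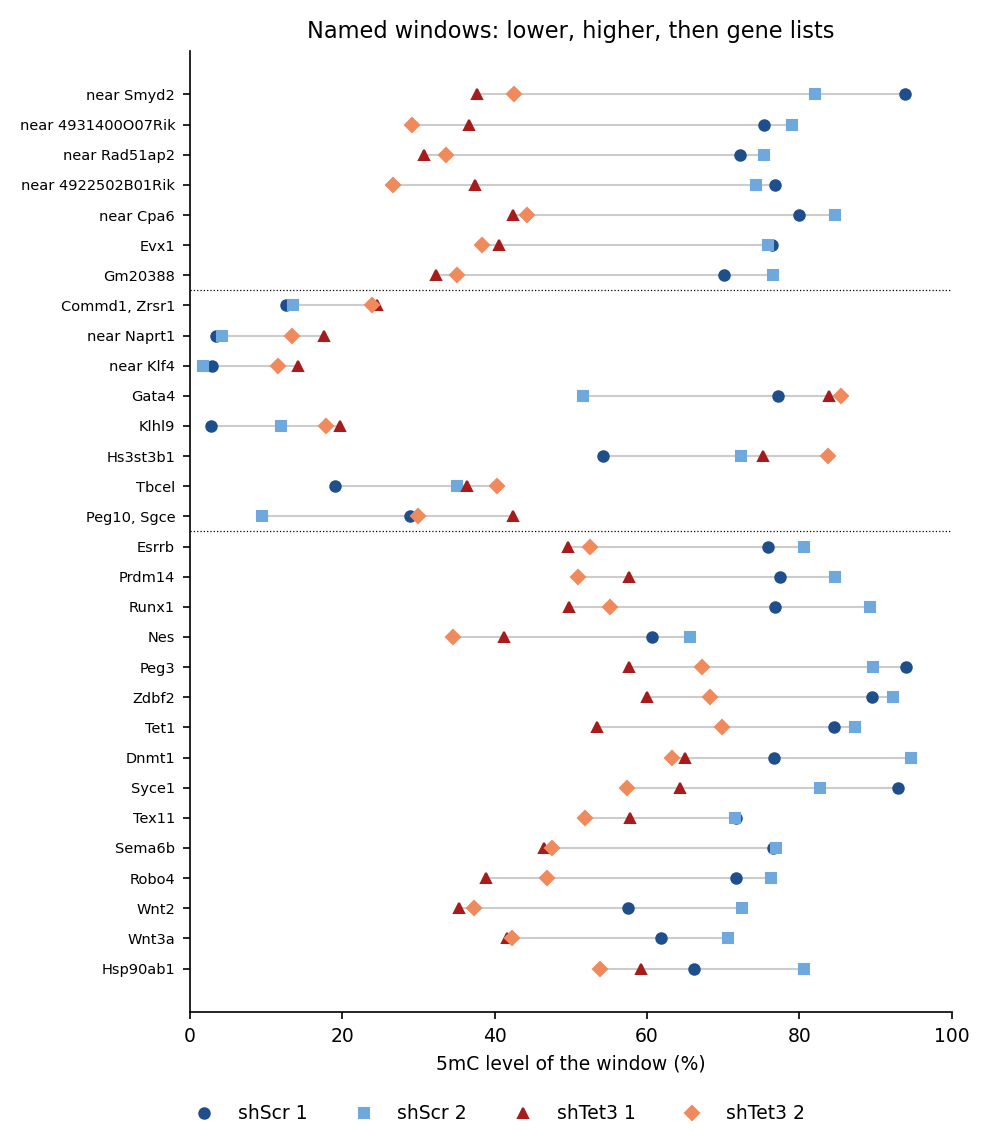
5mC level (x, percent) of the 30 named windows in the 4 oxBS libraries, 1 row per window, named by its gene or, for intergenic windows, by the gene of the nearest TSS. The dotted lines separate the 7 windows called lower with a wide gap (top), the 8 called higher, and the windows of the gene lists, in which both shTet3 libraries lie left of both shScr libraries.

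The gene lists are described by their counts, beside 42.2% of all windows in protein-coding genes and 12% of promoter windows called lower. Counts of genes stand beside 53.4% of all tested protein-coding genes with a window called lower. They also depend on how many windows of each gene were tested. The pluripotency, neural, axon guidance and Wnt and Fgf lists hold genes that the study on these samples named for a change of methylation. Examples are Esrrb, Bdnf, Slit1 and Wnt3, and calls at such genes are not independent evidence. Of the germline genes, many of which are kept silent in body cells by methylation of their promoters, 25 of 28 had a tested window and 21 had a window called lower. Here 30 of 42 windows (71.4%) and 18 of 26 promoter windows (69.2%) were called lower, with a median promoter difference of -12.7 points against -0.125 points over all promoter windows. The mean level of these windows was 63.4% and 75.5% in shScr against 54.6% and 56.6% in shTet3, and 39 of the 42 windows were above 40%. Among those 39 windows 76.9% were called lower, against 75.4% of all windows above 40% in protein-coding genes and 78.0% of all windows above 40%. Examples are the promoters of Hormad1, a gene of meiotic chromosome axes, at 75% and 82.2% against 60.6% and 61.7%, and of Asz1, a piRNA pathway gene, at 69.5% and 81.0% against 61.2% and 57.6%. At the promoter of Rnf17 the shScr libraries were at 31.0% and 80.7% and the shTet3 libraries at 30% and 41.4%, so that shScr 1 lay between the shTet3 libraries. The windows with the widest gap were in Syce1, a synaptonemal complex gene, at 92.9% and 82.7% against 64.4% and 57.4%, and in the meiotic gene Tex11. The latter was at 71.7% and 71.6% against 57.8% and 51.9%, and after centring of the libraries its difference was 2.87 points.

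Of the pluripotency genes, 20 of 25 had a tested window and 7 had a window called lower, 18 of 54 windows (33.3%). Esrrb, an orphan nuclear receptor of ES cells, had 9 of its 13 windows called lower, and the window printed above (chr12:87859000-87859999) was at 75.9% and 80.6% in shScr and at 49.6% and 52.5% in shTet3. After centring of the libraries its difference was -8.59 points, under the threshold, and the same held for the windows named below in Prdm14 (-9.70), Nes (-5.50), Dnmt1 (-5.15), Wnt2 (-8.54) and Wnt3a (-4.51). Prdm14, a zinc finger gene of ES and germ cells, was at 77.4% and 84.7% against 57.6% and 51% in its widest window. Both of the tested Tcl1 windows were called lower. In contrast, the promoter window of Pou5f1 (Oct4) was at 33.2% and 35.5% in shScr and at 32.4% and 35.7% in shTet3, and the promoter window of Zfp42 (Rex1) was at 27.7% and 53.1% against 33.1% and 29.3%. Neither was called, and at Zfp42 shScr 1 was below both shTet3 libraries. Nanog, Dppa4, Dppa5a and Tdgf1 had no tested window.

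Of the neural progenitor and neurogenesis genes, 29 of 32 were tested, and 38 of 128 windows (29.7%) were called lower in 13 genes, with 6 of 69 promoter windows (8.70%). Pax6, the transcription factor of radial glia, had 6 of 11 windows called lower. Its promoter windows were pooled at 38.4% and 25.2% for shScr against 28.0% and 29.2% for shTet3, and the groups overlapped in this pooled value, while 2 of these 7 windows were called lower. Nes, which codes for the filament protein nestin, was at 60.7% and 65.6% against 41.3% and 34.5% in the body window with the widest gap, whereas its promoter window was at 5.55% and 5.34% against 3.06% and 4.25%. Runx1, a transcription factor of blood and sensory neurons, had 8 of 16 windows called lower, the widest at 76.8% and 89.3% against 49.8% and 55.2%. The promoter windows of Hes5 and Vim were below 13% in all libraries and were not called. At the neuronal marker genes, Rbfox3 had 23 of 33 windows called lower but 0 of its 3 promoter windows. Syp had both of its promoter windows called lower, with pooled levels of 26.2% and 55.4% against 24.9% and 31.8%. In this pooled value shScr 1 lay between the shTet3 libraries, so that the groups overlapped.

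Of the genes that write, read or remove 5mC, all 17 were tested and 18 of 55 windows (32.7%) were called lower, with 1 of 25 promoter windows. That promoter window was of Tet1, at 76.7% and 93.4% against 57.4% and 67.2%. Over all 6 tested windows, 3 of them called lower, Tet1 had far lower pooled levels, with 14.1% and 13.6% in shScr against 9.84% and 12.2% in shTet3. The printed Tet1 intron (chr10:62333000-62333999) was at 84.5% and 87.3% against 53.5% and 69.8%. Tet3 itself had 4 of 8 windows called lower, and its promoter window stayed near 0, at 1.08% and 1.48% against 1.21% and 0.958%. In Dnmt1 the body window with the widest gap was at 76.7% and 94.6% against 65.0% and 63.3%, whereas its promoter windows were below 1% in all libraries. The promoters of Dnmt3b and Tdg were below 1% as well.

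Of the imprinted genes, 29 of 36 were tested, and 43 of 108 windows (39.8%) were called lower and 3 higher, against 0.0984% higher of all windows. The 3 windows are those of Zrsr1 with Commd1, of Peg10 with Sgce and of Mcts2 with H13. This list was in part chosen in the study on these samples, so that its windows called higher are not independent evidence. At the Mcts2 promoter window the levels were 29.9% and 7.23% against 29.4% and 21.2%, and shScr 1 was above both shTet3 libraries. Not called higher were, for example, the promoters of Snrpn and Grb10. The promoter windows of Snrpn were at 23.4% and 28.0% against 23.2% and 20.6%, and those of Grb10 at 18.9% and 14.8% against 15% and 15.3%. The windows with the widest loss were coding exons of Peg3, at 94.0% and 89.7% against 57.7% and 67.2%, and of Zdbf2, at 89.5% and 92.3% against 60% and 68.3%. Kcnq1 had 9 of 12 windows called lower and Trappc9 10 of 16.

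Of the axon guidance genes, ligands and receptors that steer growing axons, 66 of 69 were tested and 172 of 376 windows (45.7%) were called lower in 54 genes, with 12 of 114 promoter windows (10.5%). Sema6b, a transmembrane semaphorin, was at 76.5% and 76.9% against 46.5% and 47.5% in the coding exon printed above (chr17:56269000-56269999), and its 5 CpGs differed by -36.7 to -24.9 points. The promoter window of Robo4, a Roundabout receptor known from blood vessels, was at 71.7% and 76.3% against 38.9% and 46.9%. Of the Wnt and Fgf ligands and receptors, 47 of 49 were tested and 116 of 296 windows (39.2%) were called lower. Of these 116, 50 lay in the annotated span of Fgfr2, which also holds promoter windows of other genes. Wnt2 was at 57.5% and 72.5% against 35.3% and 37.3% and Wnt3a at 61.9% and 70.7% against 41.7% and 42.3% in their widest windows. Of their promoter windows, 1 of 2 was called at Wnt2 and 0 of 2 at Wnt3a.

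Of the housekeeping genes, 14 of 15 were tested and 1 of 24 windows (4.17%) was called lower, with 0 of 19 promoter windows. The called window lay in coding sequence of Hsp90ab1, a cytosolic chaperone gene, at 66.2% and 80.6% against 59.2% and 53.9%. Without shScr 2 its difference was -9.26 points, under the threshold, and after centring it was 2.05 points. The promoters of Actb and Gapdh were below 1% in all 4 libraries. For the 8 lists, the share of windows above 40% that was called lower lay between 50% (1 of 2 windows, housekeeping) and 76.9% (germline), against 75.4% of all such windows in protein-coding genes and 78.0% of all windows above 40%.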

How the data were processed

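Grouping followed the labels, which name shRNA, library kind and replicate. According to the methods and the submitters' processing notes, the authors trimmed reads with Trim Galore, aligned them to mm9 with Bismark and bowtie2, and wrote tables in the form of methylKit (versions are not given in the sources used here). The authors deposited, per CpG and library, the coverage (an unnormalized count of calls) and the percent of these that were C and T. Coverage was at least 5 in every file. Coverage times percent gave whole methylated calls (largest deviation 1.2e-10).

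Windows were tested by logistic regression of the methylated share of calls on the shRNA (likelihood ratio test, Benjamini-Hochberg adjustment over all 58941 windows, q below 0.01, pooled difference over 10 points). Only the regression and its test without an overdispersion term follow the default of methylKit, not the adjustment or the thresholds. They were computed directly in Python 3.11.15 with numpy 2.4.6 and scipy 1.17.1. limma 3.58.1 (R 4.3.3) was run on logits with a pseudocount of 0.5. On simulated counts the logistic regression called 78 of 100 losses of 15 points and 100 of 100 of 30 points, with 0 false calls. The simulated libraries differed by counting error only, so that this says nothing about false calls from the spread between libraries. Genes are protein-coding genes of GENCODE vM1.

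The windows, gene lists and tests were chosen with earlier results of these data known. Windows and runs named had at least 100 calls in every oxBS library: the 8 with the widest gap per direction (1 per gene or 10 kb), up to 5 longest runs per direction, and the 2 genes per list and direction with the widest gap. Genes named were the 5 with the most windows called lower, the 5 with the largest share among at least 5 windows, and those with 2 or more called higher. Items on chromosome 18 were counted but not named, and some other items that these rules pick are not reported here. Other genes of the lists were named after their values were seen. Alternatives were other coverage and CpG minimums, window widths and a shift, leaving out CpGs with coverage above percentile 99.9, unweighted CpG means, the replicate block, the F test, limma, library offsets, a larger difference, separation of the groups, 5 kb runs, other gene sets and leaving out each library. Weighted limma was added after seeing the data.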

Additional observations from a re-analysis of the deposited data

How the results depend on the processing

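The numbers of windows called lower and higher (29844 and 58) stayed within 1.5 times under other window widths, a shift of the windows, a coverage minimum of 5, leaving out CpGs of extreme coverage and unweighted CpG means. They became 13679 and 33 with 5 or more CpGs per window, with 602 runs lower, 0 runs higher and 791 genes with 3 or more windows called lower. They became 5015 and 0 with a difference over 25 points (48 and 0 runs, 100 genes), and 2193 and 4383 with a library offset (14 and 192 runs, 20 genes). limma, limma with precision weights and the overdispersion-corrected F test each gave 0 windows lower, 0 higher, 0 runs in either direction and 0 genes. A coverage minimum of 20 gave 36 windows and 0 runs higher, and a demand that both shTet3 libraries lie beyond both shScr libraries gave 20 windows and 0 runs higher. The 1 run called higher became 3 runs with windows of 500 bases, 0 with 2000 bases and 2 with the shift. With up to 5 kb between windows there were 4080 runs lower. When each library was left out in turn, the windows called lower ranged from 18398 to 34341, those called higher from 97 to 701, the runs lower from 854 to 2378, the runs higher from 2 to 8, the genes with 3 or more windows from 1105 to 2493, the mean difference from -15.3 to -7.33 points and that above 40% from -23.0 to -11.6 points. The lowest counts of windows and runs called higher came without shTet3 1, and every other end of these ranges came without a shScr library. The cause of these changes was not tested. With 5 or more CpGs per window, 35374 windows were tested and 38.7% of them were called lower, against 50.6% in the main setting. The windows of 3 to 4 CpGs that this setting leaves out were called lower in 68.6% in the main setting. Of the 30 named windows, those of Hsp90ab1 and Tex11 reversed with the library offset (2.05 and 2.87 points) and 6 others (Esrrb, Prdm14, Nes, Dnmt1, Wnt2 and Wnt3a) fell under the thresholds. Of the 4 named runs, 2 (Spen and chromosome 8) had windows that were not called at a coverage minimum of 20, and that on chromosome 8 also with unweighted CpG means.

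Libraries with the same replicate number did not deviate together (r = -0.0733 over 58941 windows), and the labels do not say that they share anything. With the replicate block, 29821 windows were called lower and 55 higher, in 1766 and 1 runs and 2012 genes. The mean differences of -11.3 and -17.1 points cannot change with the block, since each group has 1 library of each replicate number. The block changed no call of a named window or run.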
